A study of Homo sapiens with 12 samples.

Results

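Transcripts of 57 genes that act in G2 and mitosis were followed in 2 human colorectal cancer cell lines, HCT 116 and DLD1, after an siRNA against BRG1. The genes were chosen by name, for encoding mitotic kinases and cyclins or parts of the spindle, the kinetochore, the anaphase machinery and the cytokinetic ring, and all 57 were measured, each by 1 array feature, among 17687 named genes. The choice was made with earlier results of these data known. The members' shares set against all genes are therefore descriptions and not independent tests. Arrays of total RNA were made for 4 groups of 3: HCT 116 cells given the siRNA against BRG1 (siBRG1), HCT 116 cells given a control siRNA (siControl), DLD1 cells given siBRG1 and DLD1 cells given siControl. BRG1, encoded by SMARCA4, is a motor subunit of SWI/SNF complexes, which move nucleosomes with energy from ATP, and the series addressed its role in colorectal tumour cells. Both lines are established lines grown from a tumour, the knockdown is by siRNA with no genetic change, and no label states that the replicates were separate cultures, so every p-value reflects a spread among samples that may be only technical. Values are log2 array signals, a change is the siBRG1 mean minus the siControl mean on that scale, and a gene was called at a limma p, adjusted by Benjamini-Hochberg over all 17687 genes, under 0.05.

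As background, genes of G2 and mitosis are silent in resting and G1 cells and are switched on together as a cell leaves S phase. In G1 and after p53 activation the DREAM complex, which holds the MuvB core, E2F4 and a pocket protein, represses them. Later the MuvB core works with B-MYB and FOXM1 to activate them, through a promoter element called the cell cycle genes homology region (CHR), while the factor NF-Y binds CCAAT boxes nearby. Their summed transcript level in a culture therefore follows both how many cells are in G2 and mitosis and how much each such cell makes. On arrays of whole cultures, fewer cells in G2 and mitosis and less RNA per cell cannot be told apart.

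The promoters of these genes were compared in RefSeq windows that run from 250 bases before to 50 after the start (GRCh38.p14, the build of the RefSeq table, not of the arrays), of which 61 belonged to 49 of the 57 genes and 20090 to the 14250 measured genes with an entry. The CHR letters, TTTGAA or TTCGAA on either strand, were in 67.2% of the members' windows, against 13.7% of all windows. The NF-Y letters, CCAAT on either strand, were in 72.1% of the members' windows, against 34.7% of all windows, and both sets of letters stood in 1 window in 54.1% of the members' and 5.46% of all windows. Matches of both kinds shared a base in 2 of the members' windows and 23 of all windows. By position, in the 25 bases from −50 to −25 relative to the start, 21.3% of the members' windows held CHR letters, against 1.22% of all windows, and from −75 to −50, 42.6% held CCAAT letters, against 8.97%. A match is a description of the letters and not evidence of binding.

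Windows of 5 genes that were lower with siBRG1 on average over both lines are shown. They span the arrangements found in windows that held any of these letters, and a window with neither kind is not shown. Each is given 5′ to 3′ in the direction of the gene, with CHR and CCAAT letters of either strand in capitals.
KIF14, chr1:200620702-200621001, - strand: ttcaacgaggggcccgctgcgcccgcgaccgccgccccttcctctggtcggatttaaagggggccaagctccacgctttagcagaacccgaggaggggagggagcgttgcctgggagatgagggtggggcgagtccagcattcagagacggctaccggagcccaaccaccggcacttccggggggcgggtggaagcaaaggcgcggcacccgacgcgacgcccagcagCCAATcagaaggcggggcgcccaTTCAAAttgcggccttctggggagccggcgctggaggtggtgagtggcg
MAD2L1, chr4:120066799-120067098, - strand: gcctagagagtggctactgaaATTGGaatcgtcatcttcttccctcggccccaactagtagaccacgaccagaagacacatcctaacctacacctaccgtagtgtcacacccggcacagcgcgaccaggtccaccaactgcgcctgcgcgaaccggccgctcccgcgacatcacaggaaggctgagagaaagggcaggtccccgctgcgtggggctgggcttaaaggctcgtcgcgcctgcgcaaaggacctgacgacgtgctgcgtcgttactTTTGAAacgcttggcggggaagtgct
INCENP, chr11:62123761-62124060, + strand: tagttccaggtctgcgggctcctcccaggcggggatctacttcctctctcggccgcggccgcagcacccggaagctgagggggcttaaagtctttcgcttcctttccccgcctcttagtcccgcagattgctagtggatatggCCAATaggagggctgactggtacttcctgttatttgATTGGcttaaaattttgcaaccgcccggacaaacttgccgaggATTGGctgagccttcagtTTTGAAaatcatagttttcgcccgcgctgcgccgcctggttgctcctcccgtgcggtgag
CDCA5, chr11:65083991-65084290, - strand: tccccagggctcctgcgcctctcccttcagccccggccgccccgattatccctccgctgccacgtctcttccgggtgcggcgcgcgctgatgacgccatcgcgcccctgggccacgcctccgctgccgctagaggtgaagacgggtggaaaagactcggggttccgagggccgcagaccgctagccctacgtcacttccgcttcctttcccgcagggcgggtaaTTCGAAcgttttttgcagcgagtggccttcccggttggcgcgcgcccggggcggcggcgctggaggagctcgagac
CCNB1, chr5:69166900-69167199, + strand: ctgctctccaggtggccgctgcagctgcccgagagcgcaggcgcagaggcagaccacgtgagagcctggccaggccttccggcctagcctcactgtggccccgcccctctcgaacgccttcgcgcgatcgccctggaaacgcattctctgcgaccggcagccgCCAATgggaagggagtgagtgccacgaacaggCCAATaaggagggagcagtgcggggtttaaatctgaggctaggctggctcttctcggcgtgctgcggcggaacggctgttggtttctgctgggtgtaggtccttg
KIF14 and MAD2L1 each held 1 CHR and 1 CCAAT match, and INCENP held 1 CHR match after 3 CCAAT matches. CDCA5 held a CHR match of the TTCGAA form and no CCAAT match, while CCNB1 held 2 CCAAT matches and no CHR match within these 300 bases. TACC3 held neither, and SPC24 held CCAAT letters only. The median change in HCT 116 was −0.34 over the 38 members with CHR letters and −0.32 over the 11 without, and in DLD1 it was −0.16 with and −0.26 without, values given as a description with no test. The 8 members with no window, among them BIRC5, TTK and FOXM1, are outside that comparison. Their median was −0.39 in HCT 116, where 3 of the 8 were called, and −0.37 in DLD1. Of the 38 members with CHR letters 2 were called in HCT 116, and of the 11 without 2 were called. Over all genes 4.13% were called lower there and 2.82% higher.

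**Figure D1:**
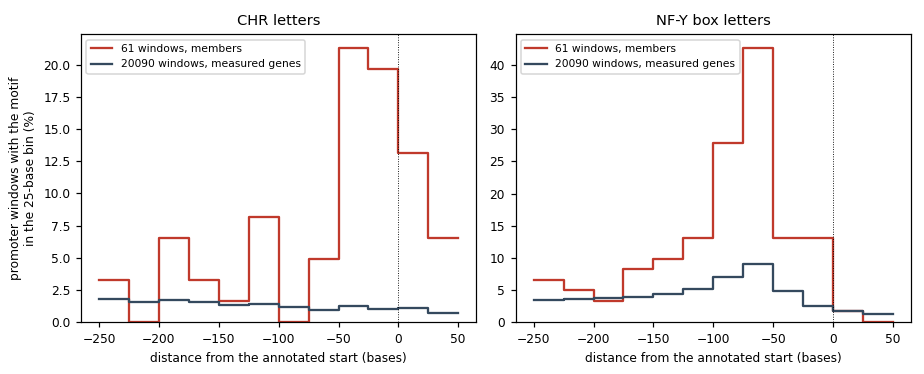
Share of promoter windows, in percent, that hold CHR letters or CCAAT letters in each 25-base bin of distance from the start, for the 61 windows of the G2 and mitosis genes and the 20090 windows of all measured genes with an entry. The members' CHR matches gather from −50 to 0 and their CCAAT matches from −100 to −50, while all windows reach 8.97% at most in a bin.

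The knockdown held in every siBRG1 array. SMARCA4 read 6.78, 6.39 and 7.03 in HCT 116 siBRG1 and 10.12, 10.15 and 9.59 in HCT 116 siControl, and 6.29, 6.55 and 6.31 in DLD1 siBRG1 against 10.31, 9.95 and 10.29 in DLD1 siControl, changes of −3.22 and −3.80. Source names of 4 HCT 116 samples give other numbers for the line or the siRNA than their titles, which set the groups here; SMARCA4 goes with the titles. The 12 array medians were between 6.36 and 6.50. Of 11 colon epithelial markers, 8 were above the array median on all 12 arrays and CDX1, VIL1 and LGALS4 below it on all. Of 16 fibroblast, endothelial and immune markers, 12 were below it on all, and COL1A2, a fibroblast marker, was above it on all. CD68, an immune marker, was higher in HCT 116 siBRG1 (6.86, 7.25 and 7.04) than in siControl (5.79, 5.52 and 5.98), with an adjusted p of 0.0036 from limma, and its part in any result was not tested. All 57 members were above the array median on every array, with values from 7.38 to 15.51.

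In HCT 116, 7 of the 57 genes fell with siBRG1 and none rose. These were BIRC5, INCENP, TTK, SPC24, TACC3, FOXM1 and CDCA5, which make 12.3% of the members, against 4.13% of all genes called lower in this comparison (2.82% were called higher, and 6.95% in either direction). Another 40 had a negative change that missed the threshold, and the median over all 57 was −0.35, against −0.01 over all genes tested. The siBRG1 arrays lay entirely below the siControl arrays for 33 members, 57.9%, against 13% of all genes, and entirely above for 2, against 11.9%. The count of 7 became 4 without siBRG1 replicate 3, siControl replicate 2 or siControl replicate 3 of HCT 116. The calls over all genes became 640, 618 and 664 in those fits, in place of 1230. BIRC5, CDCA5, TACC3 and TTK were the 4 in each of those fits. Over the 12 fits that each left out 1 array, those 4 were called in all 12, INCENP in 8, FOXM1 in 7 and SPC24 in 5. INCENP missed the threshold when HCT 116 was fitted alone (limma adjusted p = 0.0644). With arrays centred on their medians FOXM1 (0.0535) and SPC24 (0.0658) missed it, 44 of the 57 changes were negative, and the calls over all genes were 615 higher and 565 lower in place of 499 and 731.

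In DLD1 none of the 57 was called by limma, against 0.13% of all genes called lower and 0.0678% higher. An unadjusted limma p under 0.05 was found for 9 members, against 1860 of all 17687 genes. Of the 9, 8 were lower, 14% of the members against 4.75% of all genes. The change was negative for 48 of the 57, with a median of −0.19 against 0.01 over all genes tested, and the smallest adjusted p was 0.165, for CDCA5. With the replicate number as a block, which pairs the DLD1 arrays, 98 genes were called in place of 35, none of them a member. The arrays did not overlap for 9 members that were lower, 15.8%, against 7.19% of all genes, and for 3 that were higher, against 8.33%. The DLD1 median depended on siBRG1 replicate 3, on which 54 of the 57 members were below their mean over the line; without that array the median was −0.09. The members' median deviation from the line's mean was −0.41 on that array, −0.03 and 0.11 on the other DLD1 siBRG1 arrays, and 0.02, 0.20 and 0.13 on the DLD1 siControl arrays. In HCT 116 it was −0.22, −0.10 and −0.18 on the siBRG1 arrays and 0.07, 0.20 and 0.15 on the siControl arrays, so the groups did not overlap there.

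**Figure D2:**
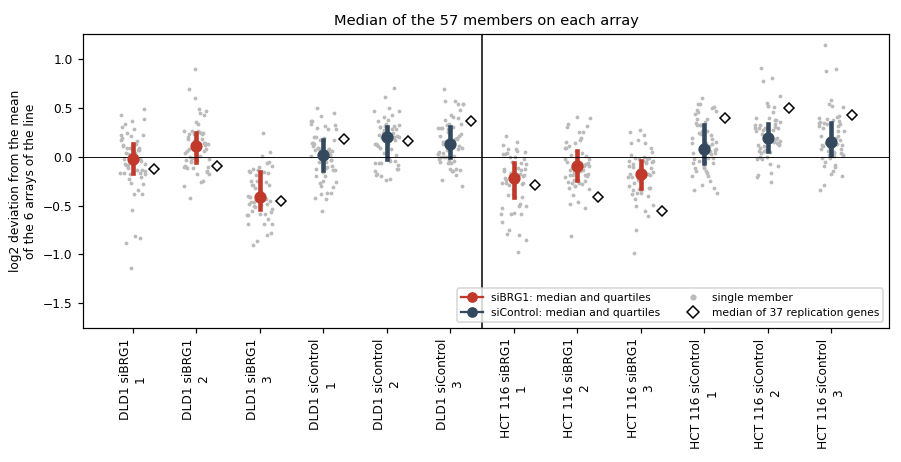
Deviation of the G2 and mitosis genes from each gene's mean over the 6 arrays of its line (log2), for the 12 arrays, with siBRG1 left of siControl in each line. Small points are genes, large points with bars their median and quartiles, and diamonds the median of 37 replication genes. DLD1 siBRG1 replicate 3 has the lowest median, −0.41, and the 3 HCT 116 siBRG1 medians, −0.22 to −0.10, are all below the 3 siControl medians, 0.07 to 0.20.

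Averaged over both lines, 10 genes fell and none rose: the 7 of HCT 116 with KIF14, MAD2L1 and CCNB1, 17.5% of the members against 4.68% of all genes called lower (4.01% higher, 8.68% in either direction). The median average change was −0.28, against −0.0029 over all genes. Both lines had a lower mean for 43 of the 57, 75.4%, against 30.35% of all genes, and 9 members had arrays below and not overlapping in both lines, 15.8% against 2.58% of all genes. Those 9 were BIRC5, INCENP, AURKA, TACC3, TTK, MAD2L1, SPC24, CDCA5 and FOXM1. Without DLD1 siBRG1 replicate 3 the count on average was 5: BIRC5, CDCA5, MAD2L1, TACC3 and TTK. The calls over all genes were 797 in that fit, in place of 1536. With the replicate number as a block, 15 members were called on average, the 10 and ASPM, AURKA, CDK1 and CKAP2 lower and KIF4A higher.

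**Figure D3:**
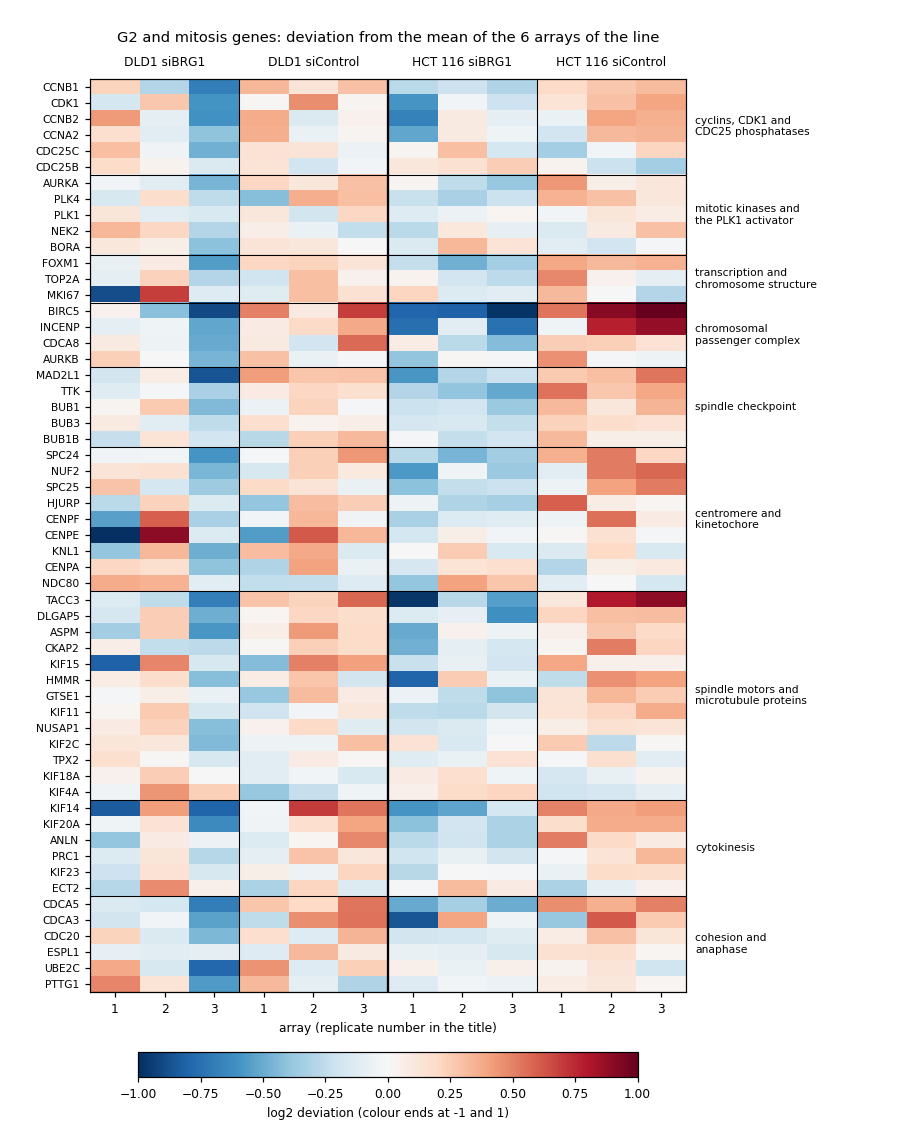
Each of the 57 genes, grouped by role, on each of the 12 arrays, coloured by its deviation from the gene's mean over the arrays of its line (log2). The siBRG1 arrays of HCT 116 are mostly below and its siControl arrays mostly above, and in DLD1 the third siBRG1 array is below for 54 of 57 genes.

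The chromosomal passenger complex, which moves from centromeres to the central spindle and corrects faulty attachments of chromosomes, had lower means in both lines for all 4 members, with median changes of −0.74 in HCT 116 and −0.37 in DLD1, of which BIRC5 and INCENP were called in HCT 116. BIRC5 encodes survivin, the subunit that brings the complex to centromeres and also an inhibitor of apoptosis. It read 10.29, 10.27 and 10.10 in HCT 116 siBRG1 and 11.61, 11.98 and 12.22 in HCT 116 siControl, a change of −1.72 (SE 0.24, adjusted p = 0.000889 with limma), the largest among the 57. In DLD1 it read 11.13, 10.67 and 10.19 with siBRG1 and 11.59, 11.18 and 11.78 with siControl, a change of −0.86 (SE 0.24, adjusted p = 0.19 with limma). The groups were apart in both lines. INCENP, the scaffold of the complex, read 10.25, 10.89 and 10.26 in HCT 116 siBRG1 and 10.96, 11.78 and 11.88 in HCT 116 siControl, a change of −1.08 (SE 0.26, adjusted p = 0.02 with limma). In DLD1 its change was −0.43 (adjusted p = 0.623), with siBRG1 replicate 3 at 10.79 and the other arrays between 11.22 and 11.69. AURKB, the kinase of the complex, changed by −0.26 in HCT 116 and −0.15 in DLD1, and CDCA8, which encodes borealin, by −0.41 and −0.31, and neither was called.

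Of the 5 spindle checkpoint genes, which delay anaphase until every chromosome is attached, all had lower means in both lines, with medians of −0.52 in HCT 116 and −0.19 in DLD1. TTK, the MPS1 kinase that starts checkpoint signalling, read 13.17, 13.07 and 12.95 in HCT 116 siBRG1 and 14.00, 13.73 and 13.84 in HCT 116 siControl, a change of −0.80 (SE 0.16, adjusted p = 0.00985 with limma). In DLD1 siBRG1 it read 13.56, 13.67 and 13.35, against 13.76, 13.88 and 13.84 in DLD1 siControl, a change of −0.30 that was not called (adjusted p = 0.576) although the arrays did not overlap. MAD2L1 encodes MAD2, the checkpoint protein that binds CDC20, and its promoter, shown above, holds both sets of letters. It read 11.48, 11.76 and 11.85 in HCT 116 siBRG1 against 12.32, 12.36 and 12.60 in HCT 116 siControl, and 11.27, 11.53 and 10.59 in DLD1 siBRG1 against 11.87, 11.73 and 11.74 in DLD1 siControl. It missed the threshold in each line alone, at −0.73 and −0.65, and passed it on average, −0.69 (SE 0.16, adjusted p = 0.0146 with limma). BUB1, a kinase that protects centromeric cohesion, changed by −0.52 in HCT 116 and −0.10 in DLD1, and BUB1B and BUB3 by −0.29 and −0.37 in HCT 116 and −0.19 and −0.18 in DLD1, with no call.

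Of 9 centromere and kinetochore genes, 1 was called in HCT 116. SPC24, a subunit of the NDC80 complex that grips microtubules, read 9.53, 9.34 and 9.46 in HCT 116 siBRG1 and 10.16, 10.32 and 10.01 in HCT 116 siControl, a change of −0.72 (SE 0.20, adjusted p = 0.0393 with limma). In DLD1 siBRG1 it read 10.37, 10.38 and 9.83, against 10.41, 10.65 and 10.84 in DLD1 siControl, −0.44 (adjusted p = 0.446). The other subunits of that complex were not called, and their changes differed in sign. NUF2 changed by −0.66 and SPC25 by −0.58 in HCT 116, while NDC80 itself had higher means with siBRG1 in both lines, by 0.20 in HCT 116 and 0.41 in DLD1. NDC80 read 11.76, 11.74 and 11.29 in DLD1 siBRG1 and 11.15, 11.15 and 11.27 in DLD1 siControl, with no overlap. CENPA, the centromeric histone H3 variant, changed by 0.09 in HCT 116 and −0.02 in DLD1, HJURP, its chaperone, by −0.46 and −0.12, CENPF by −0.39 and −0.18, and KNL1, a kinetochore scaffold, by 0.06 and −0.36.

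Among 13 spindle motors and microtubule proteins, 11 had lower means in HCT 116 and 9 in DLD1. TACC3, which with clathrin cross-links the microtubules of kinetochore fibres, read 10.56, 11.26 and 10.99 in HCT 116 siBRG1 and 11.65, 12.34 and 12.44 in HCT 116 siControl, with a change of −1.20 (SE 0.25, adjusted p = 0.00888 with limma). In DLD1 siBRG1 it read 11.50, 11.38 and 10.95, against 11.92, 11.86 and 12.21 in DLD1 siControl, −0.72 (adjusted p = 0.278). The groups were apart in both lines. TPX2, which activates Aurora A on the spindle, changed by −0.03 in HCT 116 (95% interval −0.39 to 0.33) and 0.01 in DLD1 (−0.35 to 0.37), intervals that leave out a change as large as that of TACC3. KIF11, the motor that pushes spindle poles apart, changed by −0.48 in HCT 116 and 0.08 in DLD1, DLGAP5 by −0.55 and −0.27, and CKAP2 by −0.50 and −0.29. ASPM, a spindle pole protein, changed by −0.35 and −0.45, HMMR by −0.41 and −0.12, GTSE1 by −0.48 and −0.02, NUSAP1, which bundles spindle microtubules, by −0.23 and −0.08, KIF15 by −0.33 and −0.32, and KIF2C, which depolymerises microtubules at centromeres, by −0.01 and −0.14, all without a call. KIF4A, a chromosome-arm motor, was the other way in both lines: it read 12.14, 12.27 and 12.30 in HCT 116 siBRG1 against 11.885, 11.918 and 11.996 in HCT 116 siControl, and 11.55, 12.03 and 11.82 in DLD1 siBRG1 against 11.21, 11.35 and 11.54 in DLD1 siControl. Its arrays did not overlap in either line, and its average change, 0.37 (SE 0.12), was not called (limma adjusted p = 0.0803), but was with the replicate number as a block (adjusted p = 0.045). KIF18A, a motor that damps chromosome movement, changed by 0.14 and 0.20.

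Cytokinesis genes included 6 members, of which KIF14 was called on average. KIF14, a motor that brings citron kinase to the midbody, read 10.08, 10.15 and 10.49 in HCT 116 siBRG1 and 11.17, 11.05 and 11.09 in HCT 116 siControl, and 8.51, 9.77 and 8.55 in DLD1 siBRG1 against 9.32, 10.05 and 9.88 in DLD1 siControl. The HCT 116 groups were apart, and in DLD1 siBRG1 replicate 2 lay within the siControl range. Changes were −0.86 in HCT 116 (adjusted p = 0.0967), −0.81 in DLD1 (adjusted p = 0.318) and −0.83 on average (SE 0.21, adjusted p = 0.0232 with limma). KIF20A, which carries the passenger complex to the central spindle, changed by −0.61 in HCT 116 and −0.35 in DLD1, and ANLN, the anillin that scaffolds the contractile ring, by −0.52 and −0.24. ECT2, the exchange factor that activates RhoA for furrowing, changed by 0.25 and 0.16, PRC1, which bundles the central spindle, by −0.31 and −0.20, and KIF23, a motor of the centralspindlin complex, by −0.19 and −0.15, and none of these 5 was called.

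In the 6 genes of cohesion and anaphase, the 1 called was CDCA5, which encodes sororin, the protein that keeps sister chromatids joined until anaphase. It read 10.19, 10.36 and 10.19 in HCT 116 siBRG1 and 11.16, 11.05 and 11.20 in HCT 116 siControl, a change of −0.89 (SE 0.19, adjusted p = 0.0104 with limma). In DLD1 siBRG1 it read 10.58, 10.56 and 10.04, against 11.01, 10.93 and 11.27 in DLD1 siControl, −0.68 (adjusted p = 0.165), and the groups were apart in both lines. CDC20, an activator of the anaphase-promoting complex, changed by −0.32 in HCT 116 and −0.25 in DLD1. PTTG1 and ESPL1, the securin and the separase that cuts cohesin, changed by −0.14 and −0.22 in HCT 116 and by 0.04 and −0.19 in DLD1. UBE2C, the ubiquitin-conjugating enzyme of that complex, changed by 0.02 in HCT 116 and −0.37 in DLD1, and CDCA3 by −0.34 and −0.50, and none of these 5 was called.

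FOXM1, the forkhead activator of the G2 programme, had lower values in both lines with no overlap: 12.11, 11.87 and 12.01 in HCT 116 siBRG1 against 12.74, 12.68 and 12.70 in HCT 116 siControl, and 12.98, 13.13 and 12.50 in DLD1 siBRG1 against 13.26, 13.28 and 13.18 in DLD1 siControl. Its change was −0.71 in HCT 116 (SE 0.18, adjusted p = 0.0304 with limma), −0.37 in DLD1 (adjusted p = 0.514) and −0.54 on average (adjusted p = 0.0196). MKI67, which codes for the proliferation marker Ki-67, changed by −0.02 in HCT 116 and −0.22 in DLD1, and TOP2A, the topoisomerase that untangles chromosomes, by −0.28 and −0.10. Neither was called.

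Of 6 genes for cyclins, CDK1 and its CDC25 phosphatases, 1 was called on average and none in either line alone. CCNB1, the cyclin that with CDK1 starts mitosis, read 13.14, 13.20 and 13.11 in HCT 116 siBRG1 and 13.60, 13.67 and 13.72 in HCT 116 siControl, and 13.40, 12.88 and 12.49 in DLD1 siBRG1 against 13.51, 13.31 and 13.47 in DLD1 siControl. The HCT 116 groups were apart, and in DLD1 siBRG1 replicate 1 lay within the siControl range. CCNB1 was called on average only, −0.51 (SE 0.15, adjusted p = 0.0409 with limma), with −0.52 in HCT 116 and −0.51 in DLD1, and in 11 of 12 fits that left out 1 array it was not called (adjusted p 0.0503 to 0.107). CDK1 changed by −0.55 in HCT 116 and −0.34 in DLD1, CCNB2 by −0.45 and −0.18 and CCNA2 by −0.31 and −0.22, and CDC25C by 0.10 and −0.14. CDC25B, a phosphatase that activates CDK1, had arrays above and not overlapping in HCT 116, 11.91, 11.94 and 12.04 with siBRG1 against 11.82, 11.58 and 11.45 with siControl, a change of 0.35 that was not called (limma adjusted p = 0.284).

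None of 5 genes, for 4 mitotic kinases and an activator of PLK1, was called by limma for siBRG1 in either line or on average. In HCT 116 2 of the 5 had an unadjusted limma p under 0.05, each lower, against 11.3% of all genes lower with such a p. AURKA, the spindle pole kinase, changed by −0.41 (SE 0.19) in both lines and did not overlap in either, with 13.73, 13.45 and 13.32 in HCT 116 siBRG1 against 14.14, 13.76 and 13.82 in HCT 116 siControl. PLK1, which drives entry into and exit from mitosis, changed by −0.11 in HCT 116 (95% interval −0.47 to 0.25) and −0.09 in DLD1 (−0.45 to 0.27). PLK4, the kinase of centriole duplication, changed by −0.50 and −0.16, NEK2 by −0.16 and 0.17 and BORA, the PLK1 activator, by 0.22 and −0.16.

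**Figure D4:**
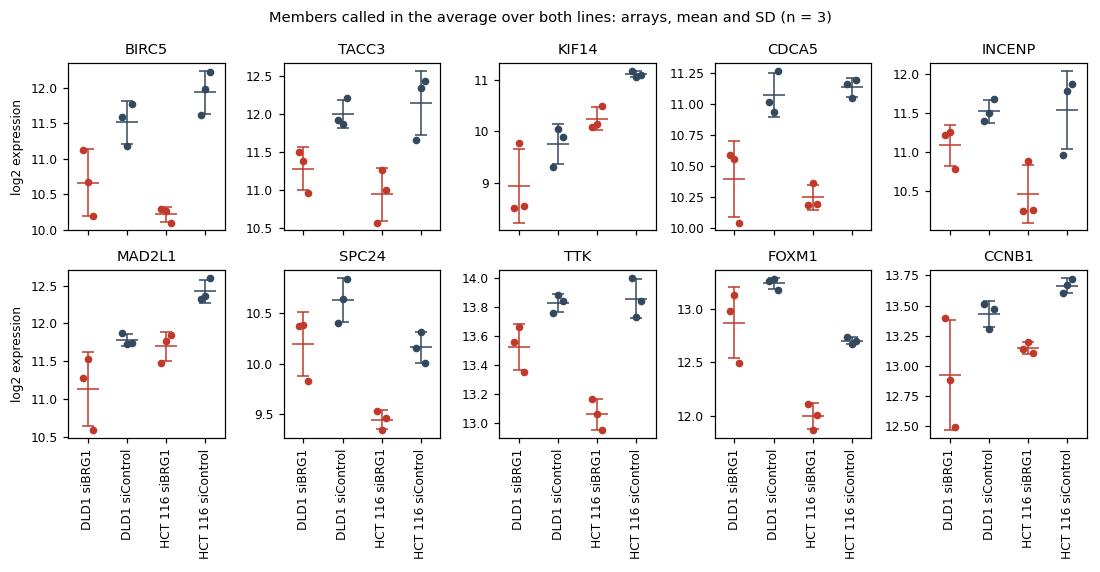
Log2 signal of the 10 genes called on average over both lines on each array, with siBRG1 left of siControl in each line, with points for arrays and marks with bars for the mean ± SD. BIRC5 has the widest gap in HCT 116, 10.29, 10.27 and 10.10 against 11.61, 11.98 and 12.22, and in DLD1 the third siBRG1 array is the lowest for every gene but KIF14.

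A test of whether the change differed between lines called none of the 57 with limma, against 0.334% of all genes. An unadjusted limma p under 0.05 was found for 2 members, each more negative in HCT 116. They make 3.51% of the members, against 5.47% of all genes in that direction. The change was more negative in HCT 116 for 44 of the 57, 77.2% against 53.9% of all genes, and the median difference, HCT 116 change minus DLD1 change, was −0.13, against −0.03 over all genes. With arrays centred on their medians 32 of the 57 were more negative in HCT 116, the members' median was −0.029, against 0.065 over all genes, and the calls over all genes were 40 higher and 19 lower in place of 28 and 31. BIRC5 had the smallest p, with a difference of −0.87 (SE 0.35, unadjusted p = 0.0245, adjusted p = 0.442). The 7 calls in HCT 116 are therefore not shown to differ from the changes in DLD1. The median difference was −0.05 without DLD1 siBRG1 replicate 2, −0.08 without HCT 116 siBRG1 replicate 1 and −0.27 without DLD1 siBRG1 replicate 3. The median SE of a member's difference was 0.29, against 0.21 for a change within a line.

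**Figure D5:**
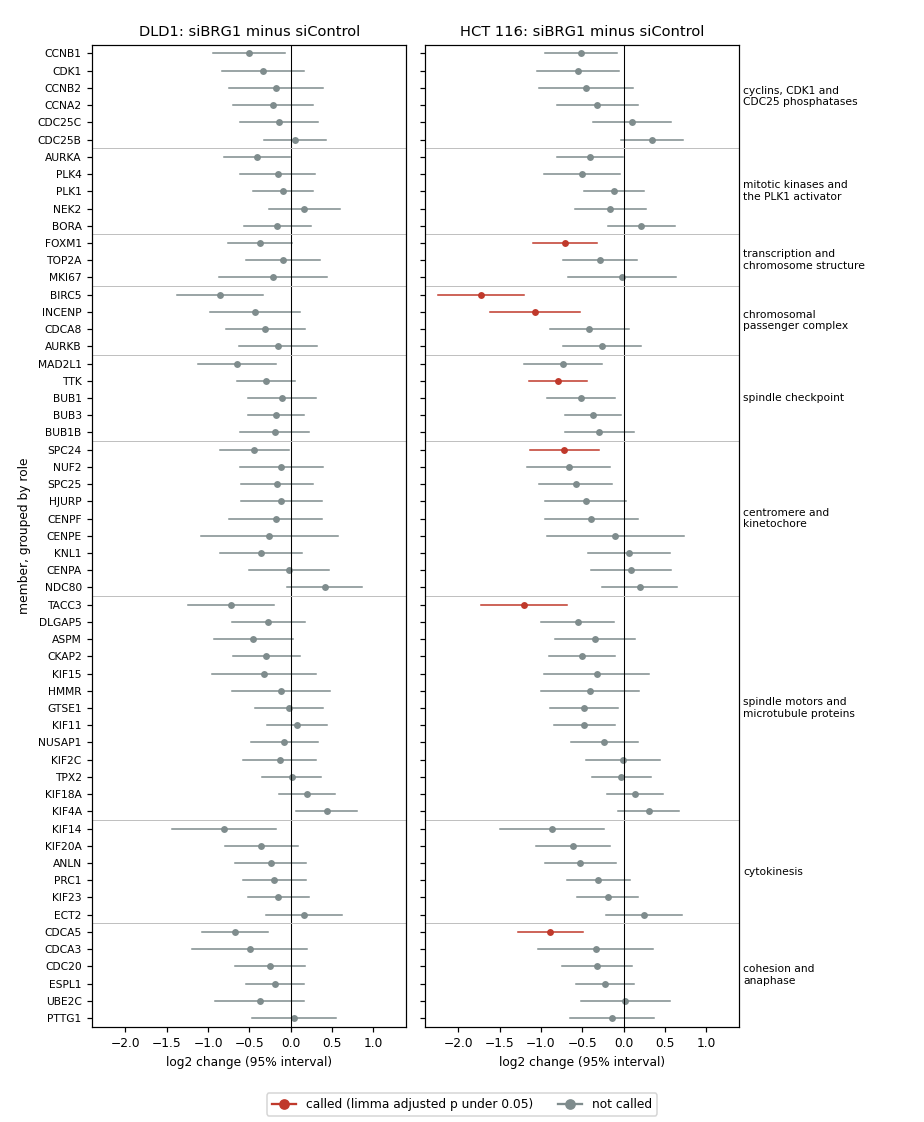
Change with siBRG1 (log2, siBRG1 minus siControl) of each of the 57 genes in HCT 116 and in DLD1, grouped by role, with bars for 95% intervals from limma. The 7 called genes are all on the negative side in HCT 116, BIRC5 farthest at −1.72, and KIF4A, NDC80, KIF18A, CDC25B and ECT2 are on the positive side in both lines.

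Between the siControl arrays of the lines the members were called about as often as all genes, 14 of the 57, 24.6%, against 27.6%. Of these, 11 were higher in HCT 116 than in DLD1, 19.3% against 13.6% of all genes, and 3 were lower, 5.26% against 14% of all genes. The median difference was 0.21, against 0.03 over all genes, and the arrays did not overlap for 19 members that were higher (20.3% of all genes) and 7 that were lower (19.7%). KIF14 differed most, with 11.17, 11.05 and 11.09 in HCT 116 siControl and 9.32, 10.05 and 9.88 in DLD1 siControl, a difference of 1.36 (SE 0.29, adjusted p = 0.00242 with limma). NDC80 read 12.46, 12.56 and 12.39 in HCT 116 siControl and 11.15, 11.15 and 11.27 in DLD1 siControl (1.28, SE 0.21, limma adjusted p = 0.000281), and CDC25B 11.82, 11.58 and 11.45 in HCT 116 siControl and 10.71, 10.39 and 10.55 in DLD1 siControl (1.07, SE 0.17, limma adjusted p = 0.000229). TPX2 was higher by 0.83, the checkpoint genes BUB3, MAD2L1 and BUB1B by 0.68, 0.64 and 0.62, PLK4 by 0.60, KIF4A by 0.57, KIF18A by 0.56 and PLK1 by 0.49. TOP2A was lower in HCT 116, by a difference of −0.97 (SE 0.21, adjusted p = 0.00249 with limma), with 13.66, 13.22 and 13.08 in HCT 116 siControl and 14.04, 14.54 and 14.28 in DLD1 siControl. CDC25C, a phosphatase that activates CDK1 at mitotic entry, differed by −0.93 (adjusted p = 0.00472) and FOXM1 by −0.53 (adjusted p = 0.0402). The count of 14 was 8 without DLD1 siControl replicate 1, HCT 116 siControl replicate 2 or HCT 116 siControl replicate 3. The median difference was 0.13 without HCT 116 siControl replicate 3. Without HCT 116 siControl replicate 2 the calls over all genes were 4135, in place of 4884. Over the 12 fits that each left out 1 array, PLK4 was called in 3, and MAD2L1, PLK1 and FOXM1 in 5 each. With arrays centred on their medians MAD2L1 (limma adjusted p = 0.0679), PLK1 (0.0939) and PLK4 (0.0634) were not called, and FOXM1 was not after a further quantile normalization (0.0717). The replicate block also left MAD2L1 uncalled (limma adjusted p = 0.0519).

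Some members varied widely between DLD1 arrays in both treatments. CENPE, a kinetochore motor, read 8.85, 10.88 and 9.86 in DLD1 siBRG1 and 9.43, 10.60 and 10.32 in DLD1 siControl, against 10.31 to 10.64 over all 6 HCT 116 arrays. MKI67 read 12.35, 13.92 and 13.10 in DLD1 siBRG1 and 13.11, 13.53 and 13.38 in DLD1 siControl, and KIF15, another spindle motor, 7.38, 8.67 and 8.03 in DLD1 siBRG1 and 7.76, 8.69 and 8.59 in DLD1 siControl. For each of the 3 genes replicate 1 was the lowest and replicate 2 the highest under both siRNAs. The SE of a change within a line was 0.39 for CENPE, the largest among the 57. With the replicate number as a block the SE of its DLD1 change was 0.19. None of the 3 was called in any contrast of the analysis reported. KIF15 was called higher in HCT 116 than in DLD1 siControl with the replicate number as a block (limma adjusted p = 0.0447).

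Other genes of the cell cycle were taken in lists. Over all genes 4.13% were called lower and 2.82% higher in HCT 116, which the counts that follow are read against. Of 33 further G2 and mitosis genes measured, 3 fell in HCT 116, 9.09%: PSRC1, a microtubule protein of the spindle, with a change of −1.51 (SE 0.26), KIFC1, a motor that clusters spindle poles, with −0.85 (SE 0.21), and PIMREG with −0.73 (SE 0.21). Their median change was −0.36 in HCT 116 and −0.14 in DLD1, beside −0.35 and −0.19 for the 57. Of 22 further kinetochore genes, 5 fell in HCT 116, 22.7%, led by CENPH (−1.17), ZWINT (−0.98) and CENPU (−0.95), and CENPL rose (0.90), 4.55%. Of 19 condensin and cohesin genes, NCAPG2 (−0.98), ESCO2 (−0.88) and SMC1A (−0.75) fell, 15.8%, and NIPBL, the cohesin loader, rose (0.85), 5.26%. None of 17 genes of the anaphase-promoting complex was called by limma for siBRG1. In HCT 116 3 of the 17 had an unadjusted limma p under 0.05, 1 lower and 2 higher. Over all genes 3615 of 17687 had such a p there, 1999 lower and 1616 higher. Of 13 MuvB, B-MYB and DREAM genes, RBL1, the pocket protein p107, fell (−0.77) and DYRK1A, the kinase that promotes DREAM assembly, rose (0.77), 7.69% each. No gene of these lists was called for siBRG1 in DLD1, where 0.198% of all genes were called.

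Genes of DNA replication, the step before G2, were also called in HCT 116. Of 37 replication licensing and fork genes, 22 fell and none rose, 59.5% against 12.3% of the 57, led by UNG, a uracil glycosylase (−1.74), GINS2, of the replicative helicase (−1.66), and CDT1, the licensing factor (−1.54). Their median change was −0.80 in HCT 116 and −0.38 in DLD1. Of 7 p53 and CDK inhibitor genes, CDKN1A, MDM2 and SFN rose in HCT 116, 42.9%. CDKN1A encodes p21, which inhibits CDKs and acts upstream of DREAM, and read 14.34, 14.06 and 13.93 in HCT 116 siBRG1 against 11.87, 11.21 and 11.47 in HCT 116 siControl, a change of 2.59 (SE 0.43, adjusted p = 0.00237 with limma). In DLD1 it read 8.77, 8.74 and 6.95 with siBRG1 and 7.85, 9.05 and 7.77 with siControl, −0.07, and the difference between the lines was 2.66 (limma adjusted p = 0.0898). The part of replication, of p21 or of any change in the share of cells in G2 and mitosis in the members' values was not tested.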

How the data were processed

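Total RNA of 12 samples was hybridised to single-colour Affymetrix arrays. Groups were set by the titles. The deposited values are log2 signals, which the submitters' processing notes credit to RMA and Affymetrix Power Tools; no version or genome build is named in the sources used here. Each array holds 94 to 112 values above 16, more than a 16-bit scanner can give in log2, so some step beyond plain RMA was applied, and no linear fold is printed. No detection calls or scan batches were used here, and precision is limited by there being 3 arrays a group.

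Of 21448 features, 17709 had 1 symbol, 0 several and 3739 none, and the brightest feature of each gene was taken, leaving 17687 genes. limma 3.58.1 in R 4.3.3 was fitted to 4 group means over the 12 arrays (8 residual and 6.66 prior degrees of freedom), with Benjamini-Hochberg adjustment over all genes and no covariate. The steps were tested on simulated data. The contrasts took siBRG1 against siControl within a line, the mean of both lines, the HCT 116 minus the DLD1 change, and HCT 116 minus DLD1 siControl. Array values are given for members called for siBRG1 (INCENP in DLD1 in part as a range) and for some called only between control lines. Other members are given by role, with up to 3 called genes of each other list. Further genes were chosen after their values were seen. The members and lists were chosen with earlier results of these data known.

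Same-numbered DLD1 arrays deviated together (correlations 0.49, 0.46 and 0.29 across genes), which pairs them from the data, not the labels; in HCT 116 the correlations were 0.30, 0.15 and 0.03. Alternatives were the replicate block, each line alone, quantile normalization, centring, filters on level, mean of features, another prior, array weights, an adjusted p under 0.01 and each array left out. Promoter letters were searched in the RefSeq table (GRCh38.p14).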

Additional observations from a re-analysis of the deposited data

How the results depend on the processing

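No median over the members and no called change named here reversed its direction under an alternative, but centring arrays on their medians turned the sign of some uncalled members: 49 negative in DLD1 (48 as deposited), 44 in HCT 116 (47), 48 on average (49), 32 for the difference (44) and 23 between control lines (14). With the replicate number as a block, 11 members were called in HCT 116, among them KIF14 (limma adjusted p = 0.0253), 0 in DLD1 and 15 on average, among them KIF4A, which was higher (adjusted p = 0.045). Between control lines the block left MAD2L1 uncalled (limma adjusted p = 0.0519) and called KIF15, higher in HCT 116 (0.0447). In HCT 116 same-numbered arrays had correlations of 0.30, 0.15 and 0.03, and whether the numbers pair those arrays was not tested. In DLD1 the block changed no call of a member. Array weights gave 11 in HCT 116. At an adjusted p under 0.01, 3 members were called in HCT 116, 3 on average and 7 between control lines. With arrays centred on their medians, which shifts all genes by 0.06 in HCT 116 and turns the split of calls over all genes to 615 higher and 565 lower (499 and 731 as deposited), 5 members were called in HCT 116 and their median was −0.28. Leaving out 1 array at a time gave 4 to 9 members in HCT 116, 5 to 12 on average, 8 to 14 between control lines and 0 in DLD1 and for the difference; the members' median ranged from −0.39 to −0.31 in HCT 116, −0.26 to −0.09 in DLD1, −0.32 to −0.21 on average, −0.27 to −0.05 for the difference and 0.13 to 0.27 between control lines. Over all genes the block, array weights and the stricter threshold gave 98, 128 and 11 calls in DLD1 (35 in the analysis reported), 2123, 2035 and 418 in HCT 116 (1230), 2476, 2306 and 494 on average (1536), and 102, 162 and 16 for the difference (59); DLD1 alone gave 4 and the trended, robust prior 63. Leaving out 1 array at a time gave 618 to 1271 calls over all genes in HCT 116 and 7 to 66 in DLD1. It gave 797 to 1593 on average, 26 to 71 for the difference and 4135 to 4956 between control lines. The other settings, the stricter threshold among them, gave 3372 to 5584 calls over all genes between control lines (4884 in the analysis reported). The causes were not tested.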
